A study of Mus musculus with 36 samples.

Results

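The 10 genes Rims1, Nsg2, Dab1, Dner, Ttll7, Lsamp, Rbfox3, Ryr3, Kcnip1 and Dlgap1 are known for their work in nerve cells and were picked because, among mice with a ligature on a normal diet (ND), they stood higher in the CCL19-KI than in the WT animals. They were 10 of the 24750 gene IDs of the table. RNA of the epididymal white adipose tissue (eWAT) was sequenced from 36 male C57BL/6 mice, 3 in each of 12 groups. The groups were WT or CCL19-KI mice on ND, 40% HFD or 60% HFD, each without ligature or with a ligature around the upper second molars, the model of ligature-induced periodontitis (LIP). Mice were on their diet for 10 weeks in all, the ligature was placed after 8 weeks of feeding at 14 weeks of age, and eWAT was taken 2 weeks later. In CCL19-KI mice, Ccl19, a chemokine that draws dendritic cells and T cells, was inserted into the Adipoq locus, so that it is made where adiponectin is made. CCL19-KI mice came from 1 homozygous line that was bred apart from the WT mice, and lymph nodes were removed from the tissue.

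Nerve cells release transmitter where vesicles fuse at an active zone, a scaffold of the axon terminal, and receive it at a postsynaptic density, a scaffold under the receptors. Adhesion molecules and secreted cues guide and hold the contacts, and potassium and calcium channels set how the cells fire. The cell bodies of the nerves that run through fat lie in ganglia outside it, and several genes with a role in nerve cells, ryanodine receptors among them, are also used in muscle.

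Each library held between 11962228 and 21581595 reads (median 15573273), and 1 read was worth 0.0472 to 0.0834 normalized CPM, the unit of all levels given here. A count of 3 reads, the limit that a count of 0 allows, came to 0.142 to 0.250 normalized CPM, for counting error only. Ccl19 was used to check the genotype labels. It was at 0.507 to 4.51 in 17 WT libraries and at 5.57 to 34.6 in 17 CCL19-KI libraries. The library labelled WT, ND, without ligature, replicate 2 had 19.2, within the range of CCL19-KI mice, and the library labelled CCL19-KI, 60% HFD, without ligature, replicate 3 had 0.687, within the range of WT mice. Both libraries carried high levels of several of the 10 genes, and the main results that rest on them are given with and without them. Adipoq, the locus of the insertion, was at 751 in the one labelled WT and at 1095 in the one labelled CCL19-KI. WT mice on a 60% HFD without ligature had 1931 to 2354 of Adipoq. Over all groups Adipoq ran from 300 to 1246 in libraries labelled CCL19-KI and from 615 to 3937 in those labelled WT, so these ranges overlapped. The levels of Ccl19 and Adipoq were not used to relabel any library.

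All 10 genes are protein-coding, and 9 of them lie on long stretches of genome. In the GRCm38 annotation, the median distance from first to last base was 470.8 kb, against 23.6 kb for 16057 protein-coding genes tested. The shortest was Nsg2 (chr11:32000463-32059202, plus strand, 58.7 kb, percentile 75.7 of those genes), and the longest was Lsamp (chr16:39984361-42181679, plus strand, 2197 kb). The other 8 genes were also above the percentile of 90. These were Rims1 (chr1:22286251-22805994, minus strand), Dner (chr1:84369839-84696221, minus strand), Ryr3 (chr2:112631355-113217096, minus strand), Ttll7 (chr3:146852367-146984009, plus strand), Dab1 (chr4:103619359-104744844, plus strand), Kcnip1 (chr11:33629339-33993152, minus strand), Rbfox3 (chr11:118489762-118911597, minus strand) and Dlgap1 (chr17:69969073-70821413, plus strand).
RefSeq start windows on GRCm38.p6 were matched for 9 of the 10 genes, 15 windows in all, and none for Ryr3. The 250 bases before each start held a median of 9 CG dinucleotides, against 6 in the windows of all 32851 starts. The windows of Rims1 and Rbfox3, the members with the most reads in ligatured CCL19-KI mice per kb of exon, are shown with that of Dner, read 5′ to 3′ on the gene's own strand with CG dinucleotides in capitals (Rims1 chr1:22806159-22806408, minus strand; Rbfox3 chr11:118761042-118761291, minus strand; Dner chr1:84696222-84696471, minus strand).
Rims1: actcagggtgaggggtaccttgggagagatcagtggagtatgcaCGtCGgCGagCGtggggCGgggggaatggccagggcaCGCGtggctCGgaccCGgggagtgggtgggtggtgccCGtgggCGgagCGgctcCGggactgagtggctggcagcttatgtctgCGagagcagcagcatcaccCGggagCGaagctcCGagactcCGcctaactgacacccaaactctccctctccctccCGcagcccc
Rbfox3: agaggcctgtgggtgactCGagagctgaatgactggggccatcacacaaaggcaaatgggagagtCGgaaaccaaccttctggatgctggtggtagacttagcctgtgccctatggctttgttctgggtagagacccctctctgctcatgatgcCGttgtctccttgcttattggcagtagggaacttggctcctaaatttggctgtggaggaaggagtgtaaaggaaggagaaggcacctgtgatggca
Dner: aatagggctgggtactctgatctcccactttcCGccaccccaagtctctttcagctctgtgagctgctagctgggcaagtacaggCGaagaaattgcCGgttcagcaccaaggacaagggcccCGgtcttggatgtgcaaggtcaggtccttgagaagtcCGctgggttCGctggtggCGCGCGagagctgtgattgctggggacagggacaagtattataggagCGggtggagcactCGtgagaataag
The Rims1 window held 19 CG dinucleotides, that of Rbfox3 held 3 and that of Dner held 11. The Rbfox3 window lies within the annotated gene, since its longest transcripts start farther upstream. The parts of the RE1 element, to which the neuronal repressor REST binds, were searched as CAGCACC and GGACAG on both strands. CAGCACC was in 3 of the 15 windows (5.73% of all windows) and GGACAG in 3 (18.7% of all), and the window of Dner was the one that held both. The E box CANNTG was in 13 of 15 (66.2% of all), and TATAAA was in 0 of 15 (12.4% of all).

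In the comparison that chose the genes, ligatured CCL19-KI against ligatured WT mice fed an ND, all 10 were higher in each of the 3 CCL19-KI libraries than in any WT library. These values are given as a description without a test, since the genes were picked on them. For all genes, the share without such overlap was not counted, so nothing is read from it. A gene was called when its p before adjustment did not exceed 0.05 and its ratio lay at 0.67 or below or at 1.5 or above (the DEG criteria). All 10 met the criteria here, where 7.94% of the 18968 genes tested were called higher, and all 10 passed an adjusted p of 0.05, where 1.86% were called higher. Nothing is read from these counts, since all of the 10 but Ttll7, Lsamp and Dlgap1 passed the filter on low values only with these CCL19-KI libraries. The median log2 difference of the 10 genes was 3.30. It was 4.65 when the 8 genes with at most 3 reads in every WT library were set to their fold over 3 reads. In bulk tissue, more cells of a type and more RNA per cell cannot be told apart.

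Of the genes of the axon terminal, Rims1 encodes a scaffold of the active zone that docks vesicles and gathers calcium channels. Rims1 was at 22.7, 14.5 and 17.6 normalized CPM (429, 236 and 287 reads) in the 3 ligatured CCL19-KI mice fed an ND and at 0, 0.0507 and 0 in the WT mice, at least 92.7-fold higher. Among all 36 libraries, no other reached the lowest of these 3 values, and the next was the library labelled WT, ND, without ligature, replicate 2 at 7.74. Nsg2, a protein of the endosomes of nerve cells that takes part in receptor traffic, was at 3.76, 5.46 and 5.15 against 0.069, 0.152 and 0. It was 24.3-fold above 3 reads in each WT library. Unlike Rims1, Nsg2 was higher still in other libraries, with 6.96 in the library labelled WT, ND, without ligature, replicate 2 and 26.6 (541 reads) in the library labelled CCL19-KI, 60% HFD, without ligature, replicate 3.

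Dlgap1 encodes a scaffold of the postsynaptic density. Dlgap1 was at 8.26, 9.70 and 19.6 normalized CPM in the CCL19-KI mice with ligature on an ND and at 0.207, 0.152 and 0.232 in the WT mice. Dlgap1 had 3 reads in each WT library and a ratio of means of 63.6. Its highest value, 82.8 (1688 reads), was in the library labelled CCL19-KI, 60% HFD, without ligature, replicate 3, and the library labelled WT, ND, without ligature, replicate 2 had 15.7. The group of CCL19-KI mice on a 60% HFD without ligature had the highest mean of Dlgap1 and of Nsg2, and its libraries overlapped those of the ligatured CCL19-KI mice on an ND for both genes.

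Dab1, Dner and Lsamp serve signalling and contact between cells. Dab1, the adaptor that passes on the reelin signal in migrating neurons, was at 4.92, 3.68 and 3.19 normalized CPM in ligatured CCL19-KI mice on an ND against 0.069, 0 and 0.0774 in WT mice, at least 20.0-fold higher. Lsamp, an adhesion protein of the IgLON family on the neuronal surface, was at 8.47, 6.75 and 16.7 against 0.138, 0.152 and 0.0774. It was 54.1-fold above 3 reads in each WT library. For both Dab1 and Lsamp, no library of another group came up to the lowest of the 3 CCL19-KI libraries. Dner, a surface protein with EGF-like repeats that acts on Notch in glia, was at 4.23, 4.30 and 7.05 against 0, 0 and 0.0774, at least 26.4-fold higher, and the library labelled WT, ND, without ligature, replicate 2 was above all 3 with 10.0.

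Kcnip1 and Ryr3 bear on excitability and calcium. Kcnip1, a calcium-binding partner of Kv4 potassium channels, was the lowest of the 10, at 2.65, 2.70 and 1.59 normalized CPM in ligatured CCL19-KI mice on an ND against 0.069, 0.0507 and 0 in WT mice, at least 11.7-fold higher. Ryr3, a channel that releases calcium from internal stores in nerve and muscle cells, was at 3.33, 3.68 and 3.80 against 0.069, 0 and 0, at least 18.3-fold higher. Each was matched by single libraries elsewhere. Kcnip1 was at 1.89 in the library labelled WT, ND, without ligature, replicate 2 and at 1.88 in replicate 1 of the CCL19-KI mice on a 60% HFD without ligature, and Ryr3 was at 3.34 in the library labelled replicate 3 of that group.

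Ttll7 and Rbfox3 are the members of the cytoskeleton and the nucleus. Ttll7, an enzyme that adds glutamate chains to tubulin, had reads in all 36 libraries, as Dlgap1 did, and was at 1.501 normalized CPM or more in each. It was at 14.0, 19.5 and 18.4 in ligatured CCL19-KI mice on an ND against 3.52, 3.70 and 2.09 in WT mice, a ratio of means of 5.58. Rbfox3, the splicing factor detected by the NeuN antibody in mature neurons, was at 27.5, 15.7 and 9.25 against 0.069, 0.0507 and 0.310, and 2 of the 3 WT libraries had at most 3 reads. The library labelled WT, ND, without ligature, replicate 2 held 21.7 of Ttll7 and 13.4 of Rbfox3, so that it lay above the lowest CCL19-KI library for both.

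Set against exon length, the 10 genes differed in level among themselves in ligatured CCL19-KI mice on an ND. The mean normalized CPM per kb of exon was 3.00 for Rbfox3, 2.48 for Rims1 and 2.09 for Ttll7, and 1.15 for Nsg2 and 1.09 for Dner. It was 0.700 for Dlgap1, 0.619 for Lsamp, 0.497 for Dab1, 0.373 for Kcnip1 and 0.190 for Ryr3, the member with the most exonic sequence. In the order of the 12 group means, neighbouring groups overlapped in 9 to 11 of the 11 steps, depending on the gene. The step from the first to the second group did not overlap for Rims1, Dab1, Lsamp and Rbfox3. The first group was the one that chose these genes, and the share of all genes was not counted.

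The 10 genes were next followed over all 36 libraries. All 10 had at least 1 normalized CPM in 4 libraries, the 3 of ligatured CCL19-KI mice on an ND and the library labelled WT, ND, without ligature, replicate 2. In the CCL19-KI mice on a 60% HFD without ligature, 8, 4 and 7 of the 10 were at that level. Replicate 2 of the CCL19-KI mice on an ND without ligature, replicate 2 of the WT mice on a 40% HFD without ligature and replicate 1 of the ligatured WT mice on a 40% HFD each had 5, the library labelled WT, ND, without ligature, replicate 1 had 4, and the other 25 libraries had 1 or 2. The summed level of the 10 was 99.8, 85.9 and 102 normalized CPM in ligatured CCL19-KI mice on an ND. It was 87.8 in the library labelled WT, ND, without ligature, replicate 2, and 40.2, 17.5 and 133 in CCL19-KI mice on a 60% HFD without ligature. The 3 ligatured WT libraries on an ND lay between 2.86 and 4.31.

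**Figure D1:**
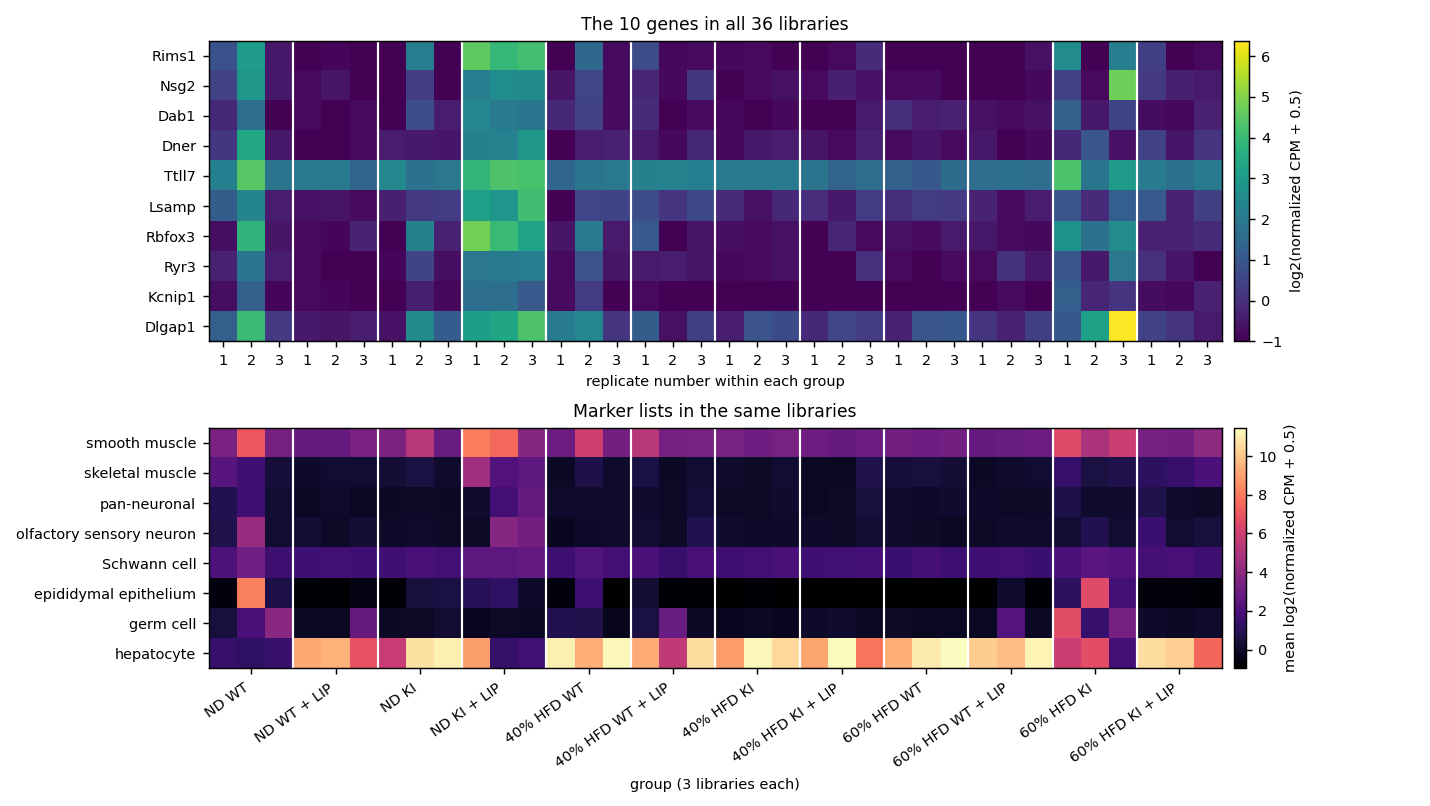
Level of the 10 genes (rows, log2(normalized CPM + 0.5) as colour) in each of the 36 libraries (columns, by group). The 3 ligatured CCL19-KI libraries on an ND and the library labelled WT, ND, without ligature, replicate 2 are high in all 10 rows.

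Markers of other cell types were also found in libraries that were high in the 10 genes. Not all of them followed the 10 genes from library to library, and their part in these results was not tested. All 14 smooth muscle markers were at 1 normalized CPM or more in 9 libraries, and 9 to 13 of them in the other 27. The 9 were the 3 ligatured CCL19-KI libraries on an ND, the library labelled WT, ND, without ligature, replicate 2, replicates 1 and 3 of the CCL19-KI mice on a 60% HFD without ligature, and the 3 libraries in which 5 of the 10 genes reached 1 normalized CPM. The summed level of the smooth muscle markers was 573.7 to 7453 normalized CPM in ligatured CCL19-KI mice and 318.6 to 502.4 in ligatured WT mice on an ND. In both groups on a 60% HFD without ligature, it was 1694 to 2608 in CCL19-KI and 953.6 to 1314 in WT mice. Epididymal epithelium markers summed to 23.4 to 3276 normalized CPM in ligatured CCL19-KI and to 1.11 to 6.04 in ligatured WT mice on an ND, and to 15731 in the library labelled WT, ND, without ligature, replicate 2. Of 23 such markers, 4, 9 and 5 reached 1 normalized CPM in the 3 ligatured CCL19-KI libraries on an ND, 0 to 2 in the ligatured WT libraries and 23 in that WT library. Of 14 skeletal muscle markers, 13, 9 and 12 reached 1 normalized CPM in the 3 ligatured CCL19-KI libraries on an ND. No WT count is set beside these here, so no difference is read from them.

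The name of neuronal genes held in part when set against 22 pan-neuronal markers. In replicates 2 and 3 of the ligatured CCL19-KI mice on an ND, 18 and 20 of the 22 pan-neuronal markers reached 1 normalized CPM, and 17 did in the library labelled WT, ND, without ligature, replicate 2. Replicate 1 of the ligatured CCL19-KI mice had the highest Rims1, Dab1 and Rbfox3 of all libraries, yet 5 of the 22 markers reached that level in it, against 3 or 4 in the ligatured WT mice on an ND. In that library the defining markers Elavl3, Elavl4, Nefl, Ina and Nrsn1 were at 0 reads, Snap25 was at 0.21 and Tubb3 at 0.42 normalized CPM. In the CCL19-KI mice on a 60% HFD without ligature, 7, 5 and 5 pan-neuronal markers reached 1 normalized CPM. The summed pan-neuronal level was 32.0 to 296 in ligatured CCL19-KI mice on an ND and 31.9 to 51.8 in ligatured WT mice on an ND. Olfactory neuron markers, which adipose tissue is not known for, were at 1 normalized CPM or more for 10 of 10 in replicates 2 and 3 of the ligatured CCL19-KI mice on an ND and in the library labelled WT, ND, without ligature, replicate 2, and for 2 of 10 in replicate 1.

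The genotype comparison in the other 10 groups, which the choice of the genes did not use, was tested with limma on log2(normalized CPM + 0.5) over 30 libraries. A difference on this scale understates the change of low genes. Averaged over the 5 conditions, no difference between CCL19-KI and WT mice was detected for any of the 10 genes, with standard errors of 0.18 to 0.45. Differences of opposite sign enter this average, with all 10 genes below 0 on an ND and above 0 on a 60% HFD, both without ligature. By limma 0 were called by the DEG criteria (0.547% of 19909 genes in either direction) and 0 by an adjusted p (0.221%). By limma 0 had an unadjusted p under 0.05, and edgeR and DESeq2 also called 0. Here and below, shares of all genes are those of limma. Counts by edgeR and DESeq2, and most counts with libraries left out, have no such share beside them and are not read against the background. The log2 differences ran from −0.10 to 0.28 with a median of 0.10, and 7 of 10 were above 0.

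On a 60% HFD without ligature, 7 of the 10 genes were higher in CCL19-KI than in WT mice by the DEG criteria, against 13.9% of all genes tested, and 3 passed an adjusted p of 0.05, against 7% of all. The 3 were Ttll7, Rbfox3 and Kcnip1. Ttll7 was at 19.0, 3.17 and 7.56 normalized CPM in CCL19-KI and at 1.88, 1.501 and 2.53 in WT mice, a log2 difference of 1.77 (SE 0.49, limma adjusted p = 0.0237). Rbfox3 was at 6.31, 2.88 and 5.35 against 0.134, 0.0834 and 0.230 (limma adjusted p = 0.0335), and 21.3-fold above 3 reads in each WT library. Kcnip1 was at 1.88, 0.361 and 0.589 against 0 in all 3 WT libraries, at least 4.14-fold higher (limma adjusted p = 0.0315). Of the 10 genes, Kcnip1 passed the filter on low values only with these CCL19-KI libraries, so nothing is read from its call or its part in these counts. The CCL19-KI and WT libraries did not overlap for these 3 genes. The share of all genes without such overlap was not counted, so nothing is read from this.

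Rims1, Nsg2, Ryr3 and Dlgap1 met the DEG criteria without an adjusted p under 0.05, and their high values were in 1 or 2 of the 3 CCL19-KI libraries. Rims1 was at 5.40, 0 and 3.98 normalized CPM in CCL19-KI mice against 0 in all 3 WT libraries (limma adjusted p = 0.1004). Nsg2 was at 0.852, 0.0721 and 26.6 against 0.067, 0.0834 and 0 (limma adjusted p = 0.0814), and Ryr3 at 1.48, 0.216 and 3.34 against 0.067, 0 and 0.0768 (limma adjusted p = 0.0541). Dlgap1 was at 1.53, 8.72 and 82.8 against 0.335, 1.42 and 1.54, a log2 difference of 2.97 (SE 1.02, limma adjusted p = 0.0549). For Dlgap1 and Nsg2 the high value was in the library labelled replicate 3, whose Ccl19 was at the level of WT mice. Dab1 (1.93, 0.216 and 0.932 against 0.469, 0.250 and 0.307), Dner (0.398, 1.44 and 0.147 against 0.067, 0.167 and 0.0768) and Lsamp (1.42, 0.433 and 1.82 against 0.469, 0.751 and 0.691) were not called, with log2 differences of 0.70, 0.79 and 0.51. The median of the 10 was 1.73. It was 2.47 with the 6 genes at or under 3 reads in every WT library set to their fold over 3 reads. Of these, over 3 reads in each WT library, Rims1 was 13.7-fold, Nsg2 40.3-fold, Ryr3 7.38-fold and Dner 2.91-fold higher.

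**Figure D2:**
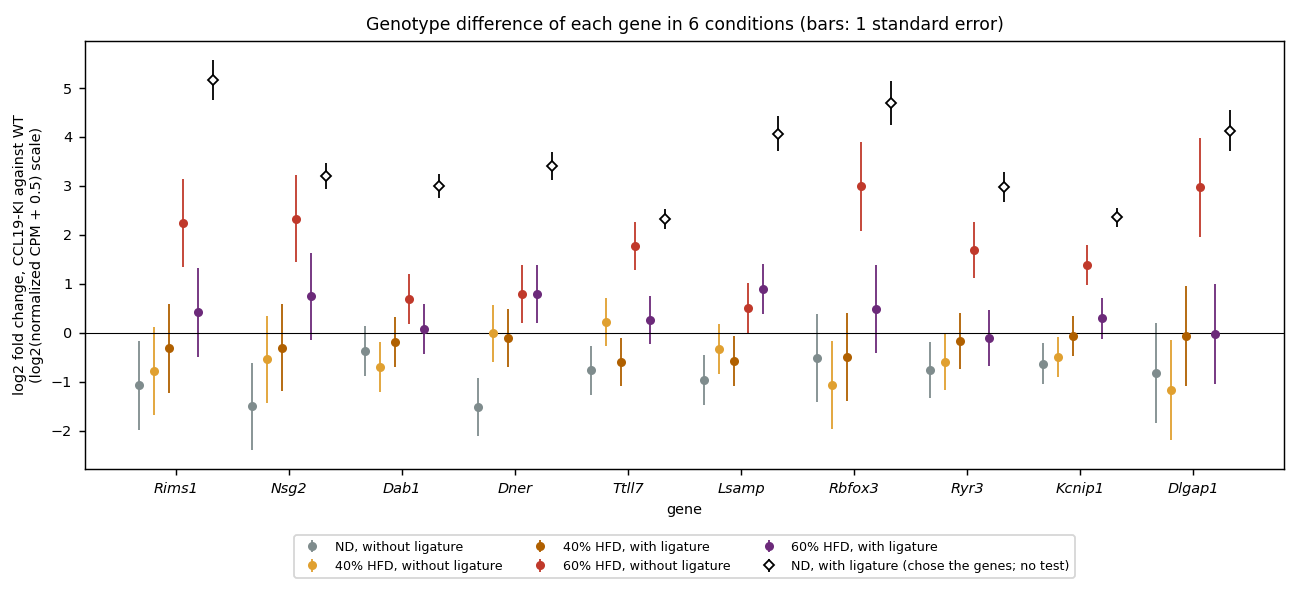
Log2 difference between CCL19-KI and WT mice for each of the 10 genes in each condition, as fitted by limma with bars of 1 SE, and the comparison that chose the genes shown as a description. On a 60% HFD without ligature all 10 are above 0, and on an ND without ligature all 10 are below 0.

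These calls depended on which libraries were used. Without the 2 libraries whose Ccl19 went against their label, 4 of 9 genes tested were called higher on a 60% HFD without ligature, with a median log2 difference of 1.13, and 3 passed an adjusted p of 0.05. The 3 were Ttll7 (1.80, limma adjusted p = 0.0101), Rbfox3 (2.89, limma adjusted p = 0.0194) and Dner (1.13, limma adjusted p = 0.0297), and Kcnip1 was not tested for lack of reads. Without the 6 of the 30 libraries that had all 14 smooth muscle markers, 2 of 5 genes tested were called (median 0.59), and 1 CCL19-KI library of that group was left, which was assumed to vary like the other groups. The adjusted count fell from 3 to 0 when any 1 of the 3 WT libraries on a 60% HFD without ligature was left out and to 1 without replicate 1 of the CCL19-KI mice, and it rose to 6 without replicate 2. Leaving out the library labelled CCL19-KI, 60% HFD, without ligature, replicate 3 left 3 genes called by the DEG criteria. Markers of the epididymis and of germ cells were also higher in these CCL19-KI libraries. Of 12 germ cell markers, 12, 8 and 11 reached 1 normalized CPM in them and 2 in each WT library on a 60% HFD without ligature, with summed levels of 69.4 to 1538 and 32.4 to 40.5. Of 23 epididymal epithelium markers, 8, 20 and 7 reached it in CCL19-KI and 0 in WT mice, with summed levels of 447 to 14189 and 0.334 to 0.461. When the 2 libraries that held at least 10 epididymal epithelium markers were left out, 8 of the 10 genes were called higher and 7 passed an adjusted p of 0.05. The part of these markers in the result was not tested.

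On an ND without ligature, limma called 1 of 10 lower in CCL19-KI mice by the DEG criteria (11.9% of all genes), and edgeR and DESeq2 each called 4. By an adjusted p the counts were 0 with limma and 1 each with edgeR and DESeq2. The gene called by limma was Dner, at 0.236, 0.216 and 0.177 normalized CPM in CCL19-KI and at 0.652, 10.0 and 0.200 in mice labelled WT (log2 difference −1.52, limma adjusted p = 0.0839). All 10 differences were below 0 (median −0.80) with the library labelled WT, replicate 2 in the comparison. Without the 2 libraries whose Ccl19 went against their label, 0 of the genes tested were called. Without replicate 1 or 3 of the WT mice 2 and 5 were called, without replicate 2 of the CCL19-KI mice 2, and without the library labelled WT, replicate 2 none.

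On a 40% HFD without ligature, limma called 0 of the 10 genes (3.85% of all genes), 0 had an unadjusted p under 0.05, and edgeR called 1 and DESeq2 2 lower. The median log2 difference was −0.57. With ligature, limma, edgeR and DESeq2 called 0 on a 40% HFD (1.65% of all genes) with a median of −0.26. On a 60% HFD with ligature limma and edgeR called 0 (1.68% of all genes) and DESeq2 called 3 higher, with a median of 0.35. No gene had an unadjusted p under 0.05 by limma in either. Leaving out replicate 2 of the ligatured CCL19-KI mice on a 60% HFD gave 1 gene called higher. In these 12 ligatured libraries Rims1 ran from 0 to 1.10 normalized CPM, and Kcnip1 from 0 to 0.298, both below every ligatured CCL19-KI library on an ND.

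Ligature and diet were compared over the same 30 libraries. Averaged over both HFDs and both genotypes, 1 gene was lower with ligature by the DEG criteria (1.8% of all genes). It was Dlgap1 (log2 difference −1.34, limma adjusted p = 0.338), which was at 0.127 to 1.76 normalized CPM in the 12 ligatured mice on an HFD, whereas without ligature it ran from 0.243 to 82.8. Without the 2 libraries whose Ccl19 went against their label, 2 genes were lower, as they were without replicate 2 of the CCL19-KI mice on a 60% HFD without ligature. Between 60% HFD and ND without ligature limma and edgeR called 0 genes (2.86% of all), with 0 at an unadjusted p under 0.05, and DESeq2 called 1 lower. Limma called 1 higher without the library labelled WT, ND, without ligature, replicate 2 and 1 lower without replicate 3 of that group. Between 40% HFD and ND limma called 0 (5.55% of all) and again 0 at an unadjusted p under 0.05, whereas edgeR called 5 and DESeq2 7 lower, with a median of −0.64. Limma called 5 lower without replicate 3 of the WT mice on an ND, 2 without replicate 2 of the WT mice on a 40% HFD, and 1 each without replicate 1 of either genotype on an ND or replicate 3 of the WT mice on a 40% HFD. Whether the genotype difference changed with ligature on the HFDs was tested as an interaction, and 1 gene was called lower (3.34% of all). It was Ttll7, whose difference fell by 1.17 on the log2 scale (limma adjusted p = 0.507), and no gene was called without replicate 1 of the CCL19-KI mice on a 60% HFD without ligature.

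To see whether the genes moved together outside the comparison that chose them, the 45 pairs of the 10 were correlated over the other 30 libraries on log2(normalized CPM + 0.5). Pearson's r was 0.41 to 0.90 with a median of 0.69, and each of the 45 pairs had an adjusted p under 0.05 by a permutation test with 100000 resamples (largest adjusted p = 0.0420, smallest p = 1e-05, the smallest these resamples can give). Spearman's rho was 0.09 to 0.77 with a median of 0.50, and 38 of the 45 pairs passed. The closest pair was Rbfox3 with Kcnip1 (r = 0.90), followed by Rims1 with Ryr3 (r = 0.90). Kcnip1 had the highest median r with the other 9 genes (0.82) and Dner the lowest (0.52). Once each group was set to its own mean, the median r was 0.60 (0.06 to 0.89) and 13 of the 45 pairs passed, with 18 by Spearman's rho.

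The joint movement rested largely on a few libraries. Without the 2 libraries farthest from the median, taking for each pair the lower r of its 2 genes, the median r was 0.45 (−0.02 to 0.87), and 43 of 45 pairs were positive. Without the 2 libraries whose Ccl19 went against their label the median r over 28 libraries was 0.52 (−0.02 to 0.85). Without the 6 libraries with all 14 smooth muscle markers, it was 0.24 over 24 libraries (−0.41 to 0.78), with 39 of 45 pairs positive and 10 of at least 0.5. The libraries share the tissue and the normalization, and most of the 10 genes were at a few reads in most of them.

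**Figure D3:**
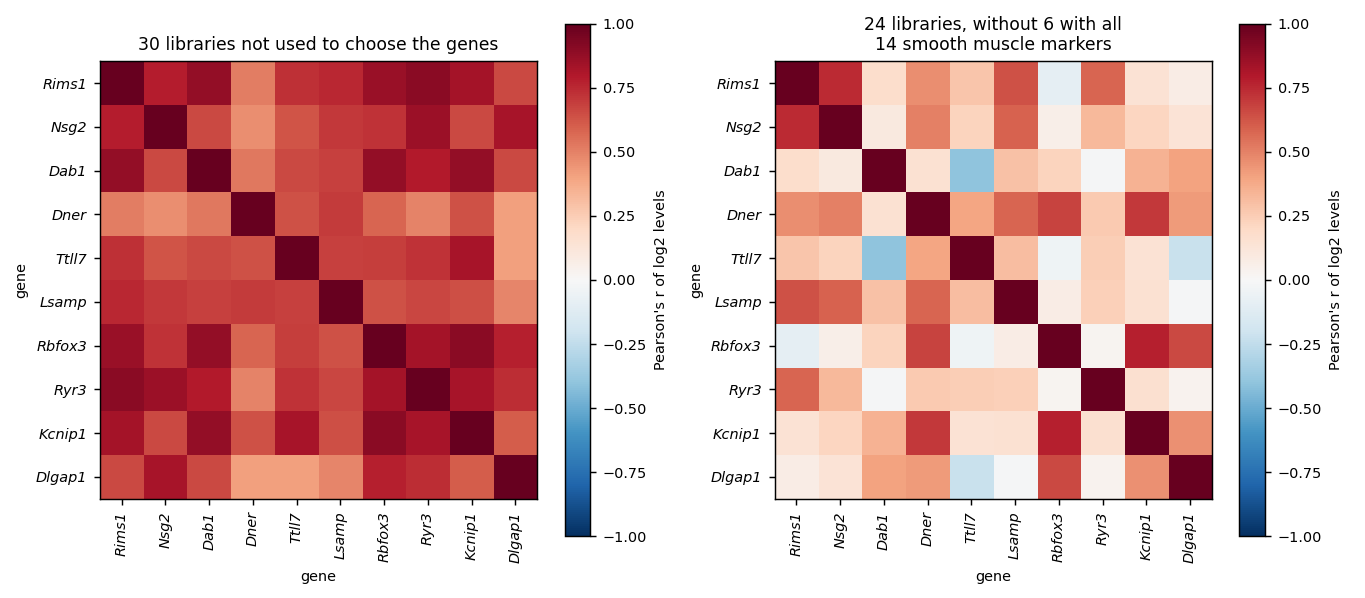
Pearson's r between each pair of the 10 genes (rows and columns, colour from −1 to 1), over the 30 libraries that did not choose the genes (left) and over the 24 left without the 6 that had all 14 smooth muscle markers (right). All 45 pairs are positive on the left, and 39 on the right with a lower median.

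Of 19899 other genes, those most like the 10 were ranked by the correlation of their level with the mean of the standardized log2 levels of the 10 over these 30 libraries. The first were Kcng1 (r = 0.95), a subunit that modifies Kv2 potassium channels, Unc5d (r = 0.94), a netrin receptor, and Sost (r = 0.94), which encodes sclerostin, a Wnt inhibitor. Next came Bves (r = 0.94), a membrane protein of heart and skeletal muscle, Mybpc1 (r = 0.93), a myosin-binding protein of slow muscle, and Mylk (r = 0.92), the myosin light chain kinase of smooth muscle. Syndig1, Cap2 and Sgca, the last a sarcoglycan of muscle, followed with r = 0.92, as did the antisense gene Atcayos, whose reads may be shared with its partner gene. Over all 36 libraries Unc5d (r = 0.94) and Syndig1 (r = 0.93) led, and Kcng1 and Cap2 were again among the first 10.

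Relatives and partners of the 10 genes were counted in the same comparisons. In ligatured CCL19-KI against WT mice on an ND, given as a description and with 7.94% of all genes called higher, both other ryanodine receptors were higher by the DEG criteria, Ryr2 of heart muscle by 3.76 and Ryr1 of skeletal muscle by 1.06 on the log2 scale. Of the other members of each family, 2 of 3 Rims genes, 1 of 1 Nsg gene, 2 of 3 Kcnip genes, 1 of 2 Rbfox genes, 0 of 2 Dlgap genes and 0 of 4 IgLON genes were higher. Of 12 tubulin ligases of the Ttll family 4 were higher and 1 lower. Of 5 genes of the Kv4 channel complex 2 were higher, led by Dpp6 (5.42), and of 8 genes of the reelin pathway 1 was, Lrp8 (1.13). Of 9 partners of Dner in Notch signalling 3 were higher and 1 lower. The wider lists held 11 of 22 presynaptic release genes, 7 of 21 postsynaptic genes and 14 of 18 pan-neuronal genes called higher, with median differences of 0.91, 0.84 and 1.82. Of the smooth muscle genes 14 of 14 were higher (median 2.63), of the skeletal muscle genes 12 of 13 (median 3.28) and of the olfactory neuron genes 8 of 9. Nothing is read from these counts, since low genes could pass the filter through these CCL19-KI libraries alone. As given above, fewer pan-neuronal markers reached 1 normalized CPM in replicate 1 of the ligatured CCL19-KI mice than in replicates 2 and 3.

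The same lists were counted on a 60% HFD without ligature, where 13.9% of all genes were called higher. Of the presynaptic release genes 3 of 22 were higher in CCL19-KI mice, 2 of them by an adjusted p, and of the postsynaptic genes 3 of 21 were higher and 1 lower. Of the pan-neuronal genes 2 of 18 were higher, 0 of them by an adjusted p. Of the Ttll genes 6 of 12 were higher, 5 by an adjusted p, with Ttll10 highest (log2 difference 4.19). Of the smooth muscle genes 10 of 14 were higher, of the germ cell genes 11 of 12 and of the epididymal epithelium genes 9 of 15, with 6, 10 and 6 by an adjusted p. Low genes of these lists could pass the filter through the CCL19-KI libraries of this group, which limits what the counts show. Leaving out the 2 libraries whose Ccl19 went against their label, 15.4% of all genes were called higher, with 2 of 22 presynaptic release genes, 5 of 19 postsynaptic genes, 5 of 17 pan-neuronal genes and 6 of 12 Ttll genes among them. Of the smooth muscle, germ cell and epididymal epithelium genes 10 of 14, 11 of 12 and 9 of 12 were. On an ND without ligature, where the library labelled WT, replicate 2 enters and 11.9% of all genes were called lower, 10 of 22 presynaptic release genes and 12 of 18 pan-neuronal genes were lower in CCL19-KI mice, 7 and 10 by an adjusted p. When those 2 libraries were left out 7 of 22 and 10 of 17 were lower, 4 and 2 by an adjusted p, against 13.3% of all genes by the DEG criteria. Averaged over the 5 conditions, 0 genes of the presynaptic release, postsynaptic and pan-neuronal lists were called, with or without the 2 libraries.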

How the data were processed

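RNA of eWAT from 36 mice was sequenced after rRNA depletion with a directional kit. According to the paper and the submitters' processing notes, reads were trimmed with Trimmomatic 0.38, aligned with Bowtie2 within RSEM 1.3.0 and normalized with edgeR. The paper names mm10 and the labels name GRCm39, and no coordinate was taken from the table. The deposited signal values are normalized CPM by the authors. They were whole multiples of 1 read in 100% of cases (tolerance 0.01), so that reads, 11962228 to 21581595 per library, were recovered. Same-group libraries differed by a chi-square per degree of freedom of 15.3 or more, so none was counted as a repeat. The design text of the series gives a ligature to all groups, whereas the labels give it to 18 mice, and the labels were followed.

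Genes that reached 0.5 normalized CPM in 3 or more libraries were tested with limma 3.58.1 (intensity trend, R 4.3.3) on log2(normalized CPM + 0.5). The comparison that chose the members was fitted on the 18 ligatured libraries. The other comparisons were fitted on the 30 libraries that did not choose the members, so the ligatured HFD libraries entered both fits. Benjamini-Hochberg adjustment was over all genes. edgeR 4.0.16 and DESeq2 1.42.0 on the recovered reads, other pseudocounts, filters, scalings and library sets were alternatives. Correlations used permutation tests in scipy 1.17.1, two-sided. The fit was tested on simulated data. Genes named are the 10 members, their family and pathway lists, and the 10 genes most alike. The members, lists and tests were chosen with earlier results of these data known. Start windows and positions come from RefSeq GRCm38.p6 and GENCODE M21. Pairs of groups share libraries, so the comparisons are not independent.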

Additional observations from a re-analysis of the deposited data

Results flagged for a closer look

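For 4 of the 10 genes the genotype difference (CCL19-KI against WT, without ligature) was higher on a 60% HFD than on an ND. This was a test of the difference itself, a contrast in the limma fit of 30 libraries. For all 4 the genotype difference was above 0 on a 60% HFD and below 0 on an ND. The difference between the diets was 3.83 on the log2 scale for Nsg2 (limma adjusted p = 0.0379), 2.55 for Ttll7 (0.0158), 2.44 for Ryr3 (0.0404) and 2.02 for Kcnip1 (0.0209). Nothing is read from the value of Kcnip1, which passed the filter on low values only with the CCL19-KI libraries on a 60% HFD without ligature. In all, 3636 of the 19909 genes tested passed this test, which was added after the data had been seen. The genotype difference was also compared between 40% HFD and ND without ligature, between the 2 HFDs, and between ligature and none on each HFD. In those comparisons no member had a limma adjusted p under 0.05 in the fit of 30 libraries. Both of the libraries whose Ccl19 went against their label enter it, the one labelled WT, ND, replicate 2 and the one labelled CCL19-KI, 60% HFD, replicate 3. Without them the differences were 1.21 for Nsg2 (limma adjusted p = 0.195), 1.75 for Ttll7 (0.0467) and 1.13 for Ryr3 (0.276), and Kcnip1 was not tested for lack of reads. Dner, which is not among the 4 (2.31, limma adjusted p = 0.0551), had 1.47 (0.0410) without these libraries. Without the 6 libraries that had all 14 smooth muscle markers, 1 CCL19-KI library on a 60% HFD without ligature was left, and it was assumed to vary like the other groups. There 449 genes passed, Nsg2 had 1.03 (limma adjusted p = 0.267) and Ttll7 0.40 (0.593), and Ryr3 and Kcnip1 were not tested.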

How the results depend on the processing

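Of the counts of genes called and the median correlation under the alternatives, 884 stayed equal or close. Of the counts, 36 went from no gene called to some and 14 from some to none, and 28 values moved otherwise. Many of the 884 were counts for which no gene was called in the main fit or under the alternative, so no direction is read from them. Of the median differences and the values of single genes, 623 stayed alike, 6 became stronger, 17 became weaker, 76 moved and 2 reversed. Leaving out libraries by their markers or Ccl19 (for the gene lists too) was chosen after seeing the data. So was fitting comparisons other than the one that chose the genes on the 18 ligatured or 18 unligatured libraries alone.

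On a 60% HFD without ligature, the 7 genes higher in CCL19-KI mice became 2 with only the groups compared, 2 without the 6 libraries with all 14 smooth muscle markers, 4 without the 2 libraries whose Ccl19 went against their label, and 3 to 8 with 1 library left out. The 3 genes with an adjusted p below 0.05 became 0 with a pseudocount of 5, 5 with edgeR, 7 with DESeq2, 5 with all 36 libraries in one fit, 1 with only the groups compared, 0 with the 18 unligatured libraries, 1 without the 6 libraries, 7 without the 2 libraries with at least 10 epididymal epithelium markers, and 0 to 6 with 1 library left out. The Lsamp log2 difference of 0.51 became −0.014 with sample quality weights and −0.28 without the 6 libraries. On an ND without ligature, the 1 gene lower became 2 with a pseudocount of 0.1 or 1 and with quantile normalization, 4 with edgeR and with DESeq2, and 0 with a pseudocount of 5, a filter at 1 normalized CPM, sample quality weights, only the groups compared, or without either pair of libraries, and 0 to 5 with 1 library left out. The count with an adjusted p there was 0, with 1 by edgeR, 1 by DESeq2 and 0 to 2 with 1 library left out.

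On a 40% HFD without ligature, 0 became 1 (edgeR), 2 (DESeq2) and 1 (sample quality weights, also by an adjusted p). With ligature, 0 lower on a 40% HFD became 1 with only the groups compared, with the 18 ligatured libraries, without the 6 and without the 2 epididymal libraries. On a 60% HFD with ligature, 0 higher became 3 (DESeq2), 2 (sample quality weights), 3 (18 ligatured libraries), 1 (without the 2 libraries of Ccl19), 2 (without the 6), 2 (without the 2 epididymal libraries) and 0 to 1 with 1 library left out. The 1 gene lower with ligature became 2 with only the groups compared, 2 without the 2 libraries of Ccl19, 3 without the 2 epididymal libraries and 1 to 2 with 1 left out, and 1 passed an adjusted p by DESeq2. The 1 gene of the interaction became 0 (pseudocount of 5), 3 (sample quality weights), 2 (without the 2 epididymal libraries, 1 by an adjusted p) and 0 to 1 with 1 left out. For 60% HFD against ND, 0 higher became 1 without the 6, 4 without the 2 epididymal libraries and 0 to 1 with 1 left out, and 0 lower became 1 with DESeq2 and 0 to 1 with 1 left out. For 40% HFD against ND, 0 lower became 1 with a pseudocount of 0.1, 1 with quantile normalization, 5 with edgeR, 7 with DESeq2, 2 with sample quality weights, 1 with all 36 libraries and 0 to 5 with 1 left out. The median pairwise correlation of 0.69 became 0.24 without the 6 libraries and 0.52 without the 2 libraries of Ccl19. The cause of these changes was not tested, except that fewer libraries and fewer genes enter where some are left out.

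Replicate numbers did not pair the samples, as same-numbered libraries of the genotypes correlated by −0.57 to 0.33 over 18 pairs, 4 of them over 0.1. With a replicate block the count on a 60% HFD without ligature was again 7, with 3 by an adjusted p, and no other count of the 10 genes changed. With 3 reads at 0.142 to 0.250 normalized CPM, a level under that cannot be told from 0 for most of the 10 genes outside the libraries named.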
